A study of Mus musculus with 16 samples.

Results

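DNA break ends were compared between HMGB1-knockdown cells given 5 Gy of gamma rays and the same cells given 0 Gy. The 4 samples, 2 at 5 Gy and 2 at 0 Gy, were taken by hairpin, dose and replicate number from their titles, out of 16 samples in all, and each irradiated sample was set against the unirradiated sample of its own number. The cells are AB22, a mouse malignant mesothelioma line, in which a doxycycline-inducible pTRIPZ vector expresses a hairpin against Hmgb1 (shHMGB1). The 5 Gy and 0 Gy cells alike were selected with puromycin, kept in doxycycline and synchronised in G1, and the irradiated ones were exposed to a caesium source. The remaining samples are shHMGB1 cells at 3 and 10 Gy and cells with a control hairpin (shCTRL) at 0, 3, 5 and 10 Gy, 2 each. BLISS, the assay used, ligates an adapter to free DNA ends inside fixed cells and counts each ligated molecule once. Its totals are not set against a number of cells here, so they are read for where ends lie and not for how many breaks a cell carries.

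HMGB1 is an abundant nuclear protein that binds and bends DNA without sequence preference and is known to assist nucleosome assembly. Gamma rays break DNA by direct ionisation and through hydroxyl radicals, and wrapping of DNA on histones is known to limit radical attack. The study, by its title, is about protection of DNA by nucleosomes, and 5 Gy against 0 Gy in the knockdown line addresses where ends lie once cells with the knockdown have been irradiated. Not every ligated end is made by radiation: transcription, topoisomerases, repeats and handling leave ends too, which is what the 0 Gy samples measure.

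The main chromosomes held 903410 and 785942 ends in the 5 Gy samples (replicates 1 and 2), against 691644 and 881445 in the 0 Gy samples, within the range of 131430 to 1010888 over all 16 samples. The ratio of 5 Gy to 0 Gy was 1.31 in replicate 1 and 0.892 in replicate 2, so the numbers had opposite directions and the groups overlapped. The exact two-sided permutation p was 0.667, and 2 samples against 2 cannot give less than 0.333. Levels are given as shares of a sample's ends or as ends per 1000000 ends of the sample (CPM), and a lower share in one place cannot be told apart from more ends elsewhere. Hmgb1 itself held 73.1 and 35.6 CPM at 5 Gy, against 34.7 and 48.8 CPM at 0 Gy. Break ends say nothing of transcript levels, so these values are no check of the knockdown. Nor can ends check the cell type by its marker genes.

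At 5 Gy a smaller share of ends lay in exons and a larger share between genes than at 0 Gy. Exons held 10.7% and 8.56% of ends at 5 Gy, against 14.1% and 12.02% at 0 Gy, a difference of -3.43 percentage points in replicate 1 and -3.47 in replicate 2. Intergenic DNA held 37.1% and 36.5% at 5 Gy, against 33.7% and 34.2% at 0 Gy. Introns held 38.8% and 38.7% at 5 Gy, against 39.7% and 40.4% at 0 Gy. In these 3 classes the groups did not overlap, and each gave an exact p of 0.333, the smallest possible (0.333 after Benjamini-Hochberg adjustment over 4 regions). With labels exchanged only within replicate number the smallest p is 0.5, which these classes also gave.

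The promoter share, counted over 1 kb to either side of protein-coding gene starts, took opposite directions depending on how repeated ends were counted. Of all ends, 13.4% and 16.2% lay there at 5 Gy, against 12.5% and 13.3% at 0 Gy. When each position was counted once, the share was 3.62% and 3.41% at 5 Gy, against 4.17% and 3.82% at 0 Gy. The exon and intergenic shares kept their directions under that count: exons held 9.91% and 8.71% of positions at 5 Gy, against 11.7% and 11.1% at 0 Gy, and intergenic DNA 41.7% and 42.7% at 5 Gy, against 37.4% and 38.04% at 0 Gy. For scale, promoters cover 1.52%, exons 3.69%, introns 39.2% and intergenic DNA 55.6% of the main chromosomes.

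**Figure D1:**
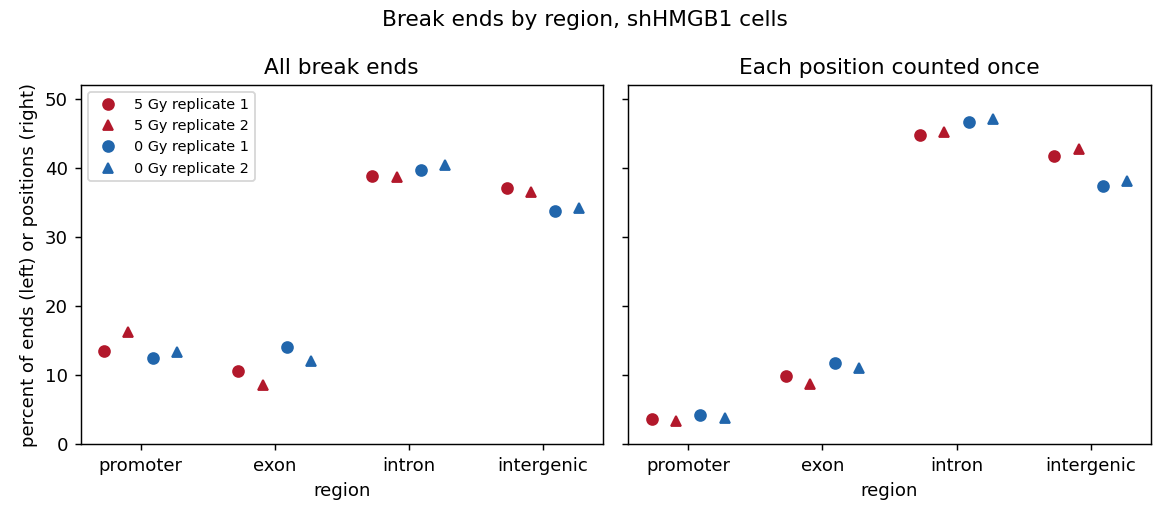
Percent of ends (left) and of distinct positions (right) in 4 region classes, 1 point for each shHMGB1 sample, red for 5 Gy and blue for 0 Gy, circles for replicate 1 and triangles for replicate 2. Exon points are lower and intergenic points higher at 5 Gy in both panels, whereas promoter points are higher at 5 Gy on the left and lower on the right.

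Dense regions were looked at next, since the promoter direction turned when they were left out. The 32 regions around clusters of at least 1000 ends held 20.6% and 21.2% of ends at 5 Gy, against 22.6% and 21.5% at 0 Gy. Among them, the regions of chromosome 9, which annotated genes such as Gm10718, Gm10722 and Gm11168 overlap, held 3.33% and 4.29% at 5 Gy, against 2.69% and 3.04% at 0 Gy. All 4 of these were higher in both numbers. The 4 regions of chromosome 2, most of whose ends lie at Gm10800 and Gm10801, held 8.91% and 11.2% at 5 Gy, against 8.30% and 8.95% at 0 Gy. Of these 4, 1 was higher and 2 were lower in both numbers. The 22 regions outside chromosomes 2, 9 and 17 held 5.23% and 4.07% at 5 Gy, against 6.45% and 6.35% at 0 Gy, and 20 of them were lower in both numbers. So within each number the summed share was higher at 5 Gy on chromosomes 2 and 9 and lower over the rest. The same directions held within each number in shCTRL. There the chromosome 2 regions held 12.5% and 9.30% at 5 Gy, against 10.1% and 7.79% at 0 Gy. Those of chromosome 9 held 4.15% and 3.02% at 5 Gy, against 3.75% and 2.67% at 0 Gy. The 22 regions outside chromosomes 2, 9 and 17 held 5.97% and 6.39% at 5 Gy, against 6.37% and 7.38% at 0 Gy. With dense regions left out, the promoter share in shHMGB1 was 3.45% and 3.15% at 5 Gy, against 4.05% and 3.79% at 0 Gy.

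The chromosome 17 repeat overlaps 3 long noncoding annotations, Gm26917, Gm42418 and AY036118. Its dense region (17:39841995-39849347) held 3.05% and 1.63% of ends at 5 Gy, against 5.07% and 3.12% at 0 Gy. The groups did not overlap, although 5 Gy replicate 1 lay close to 0 Gy replicate 2, and replicate 1 was the higher number at both doses. The other dense region of chromosome 17 (17:36230368-36232416) lies elsewhere and overlaps no gene counted here. It held 0.0418% and 0.00929% at 5 Gy, against 0.124% and 0.0372% at 0 Gy. Of the 3 annotations of the repeat, Gm26917 (17:39843013-39846341) had the most ends in each sample, with 15617.5 and 6985 CPM at 5 Gy, against 32729 and 17695 CPM at 0 Gy. Gm42418 had 10848 and 6629 CPM at 5 Gy, against 12608 and 9422 CPM at 0 Gy, and AY036118 had 7916 and 5112 CPM at 5 Gy, against 8467 and 6766 CPM at 0 Gy. Neither of these passed the test.

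Among 12848 genes tested, 12 fell at 5 Gy and 0 rose (edgeR quasi-likelihood with replicate number within each line as a block, Benjamini-Hochberg adjusted p under 0.05), which is 0.0934% of the genes tested. At an unadjusted p under 0.05 there were 348 higher and 504 lower, 6.63% of the genes. Those described here are Rpl4, Rpl5, Ppan, Timd2, Gm26917, Tnfsf12, Tnfsfm13, Tnfsf13os, Taco1, Ehd2 and Cluh, 11 of the 12, and in each of them both 5 Gy samples lay below both 0 Gy samples. These genes passed a test of the same difference, so their separation adds no support to it. The call rests on the block and on the number of ends per position: without the replicate block 0 genes passed, DESeq2 gave 2, each position counted once gave 0, and the fit without 5 Gy replicate 1, without 5 Gy replicate 2 or without 0 Gy replicate 2 gave 0.

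**Figure D2:**
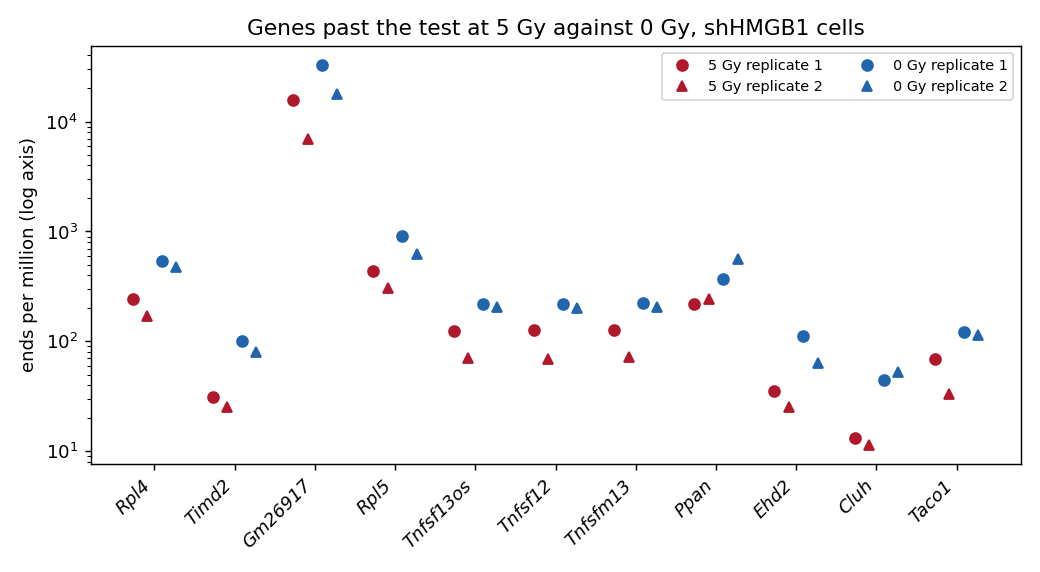
Break ends in CPM (log axis) in 11 of the 12 genes past the test, 1 point per shHMGB1 sample, red for 5 Gy and blue for 0 Gy, circles for replicate 1 and triangles for replicate 2. In every gene both red points lie below both blue points, for example 245 and 172 against 538 and 475 CPM in Rpl4.

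Of these 11 genes, 3 carry small nucleolar RNAs (snoRNAs) within them. Rpl4, a protein of the large ribosomal subunit, had 245 and 172 CPM at 5 Gy, against 538 and 475 CPM at 0 Gy, a log2 change of -1.26 ± 0.22 (SE, adjusted p = 0.000200). Rpl5, a large-subunit protein that binds 5S ribosomal RNA, had 437 and 304 CPM at 5 Gy, against 917 and 623 CPM at 0 Gy (-0.99 ± 0.22, adjusted p = 0.0139). Ppan, a factor for assembly of the large subunit, had 220.3 and 242 CPM at 5 Gy, against 373 and 557 CPM at 0 Gy (-0.95 ± 0.22, adjusted p = 0.0231).

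The ends of these 3 genes lay mostly in their snoRNAs rather than along the gene. SnoRNAs are cut out of introns and guide the chemical modification of ribosomal RNA, and those of the box C/D class guide its methylation. Within 10 bases of an annotated snoRNA lay 95.4% of the ends of Rpl4 over the 4 samples, 98.6% of those of Rpl5 and 95.3% of those of Ppan. For each host the snoRNA with the most ends over the 4 samples is given here, with the one of Gas5, a noncoding snoRNA host that missed the test (2325 and 2116 CPM at 5 Gy, against 3902 and 4191 CPM at 0 Gy, -0.81 ± 0.23, edgeR adjusted p = 0.181). The sequences are those of GENCODE M21 (GRCm38), read 5′ to 3′, and capitals mark bases that each held at least 10% of the snoRNA's ends. The choice of these 4 was made after their values were seen.
Gm23344 (in Rpl4): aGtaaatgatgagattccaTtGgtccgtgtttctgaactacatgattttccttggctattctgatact
Snord21 (in Rpl5): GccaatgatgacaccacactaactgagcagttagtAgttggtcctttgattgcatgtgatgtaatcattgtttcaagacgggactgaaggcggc
Gm23008 (in Ppan): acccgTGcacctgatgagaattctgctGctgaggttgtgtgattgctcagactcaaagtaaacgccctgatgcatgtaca
Gm25789 (in Gas5): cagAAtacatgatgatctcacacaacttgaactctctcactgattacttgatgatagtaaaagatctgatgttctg

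In 3 of these 4 snoRNAs most ends lay on 2 or 3 bases. Gm25789 (1:161038308-161038383, plus strand) had 64.9% of its ends on bases 4 and 5, with 599.9 and 667 CPM at 5 Gy, against 1155 and 1238 CPM at 0 Gy. Gm23008 (9:20890757-20890836, plus strand) had 80.3% of its ends on bases 6, 7 and 28, and Gm23344 (9:64175048-64175115, plus strand) had 76.0% on bases 2, 20 and 22, whereas Snord21 (5:107904555-107904648, plus strand) had 34.9% on bases 1 and 36 and the rest spread over other bases. All 4 hold the letters TGATGA, the core of box C, starting at base 6 to 12 of the transcript strand, and 26.1% of the 1507 annotated snoRNAs hold these letters anywhere on that strand. Gm23344, Gm23008 and Gm25789 are annotated as predicted genes.

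Over all 1507 snoRNA genes the groups did not overlap either: the share of ends was 1.89% and 1.57% at 5 Gy, against 2.73% and 2.99% at 0 Gy. The exact p was 0.333, the smallest that 2 against 2 allows. Of the 148 snoRNAs with at least 50 ends over the 4 samples, 130 were lower in both numbers and 0 higher in both, with median ratios of 0.732 and 0.499. Among all tested genes 28.2% were lower and 27.4% higher in both numbers. The 40 most crowded positions outside dense regions, in snoRNA hosts or not, had median ratios of 0.822 and 0.494. The decrease was thus not particular to snoRNAs. Within 7 bases of a snoRNA border lay 52.4% and 61.3% of the ends in and around snoRNAs at 5 Gy, against 59.1% and 62.3% at 0 Gy, in 20.4% of the span searched. The first annotated base alone held 1692.5 and 1665.5 CPM at 5 Gy, against 2980 and 3147 CPM at 0 Gy. Other small RNA classes were also lower at 5 Gy: scaRNA genes held 0.0656% and 0.0590% of ends at 5 Gy, against 0.0817% and 0.0760% at 0 Gy, and miRNA genes 0.0519% and 0.0478% at 5 Gy, against 0.0639% and 0.0619% at 0 Gy. The libraries were made with a small RNA kit from transcribed DNA, per the labels' protocols, and its part in these pile-ups was not tested.

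**Figure D3:**
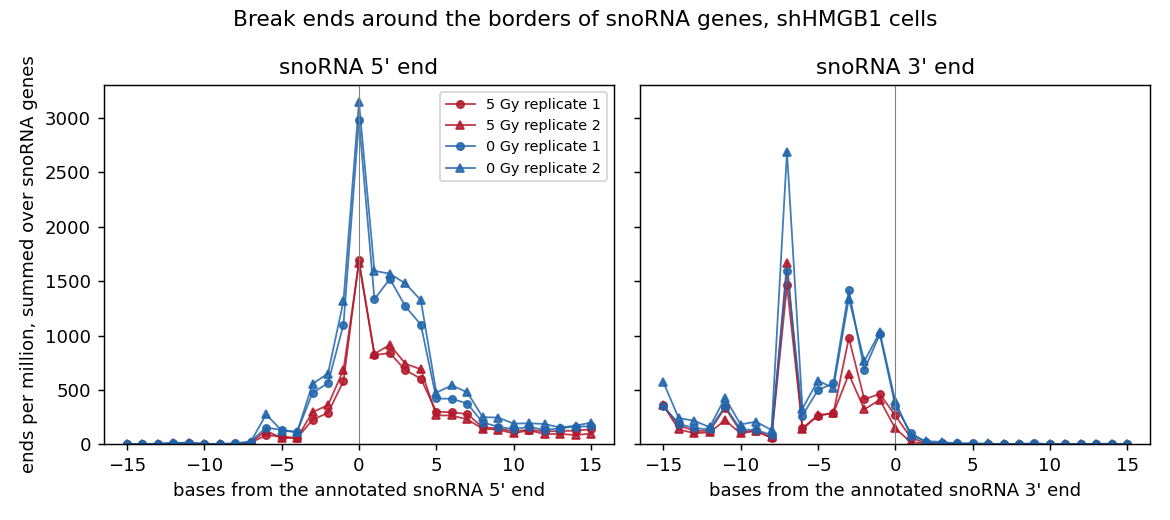
Break ends in CPM, summed over 1507 snoRNA genes, by distance in bases from the annotated 5′ end (left) and 3′ end (right), 1 line per shHMGB1 sample, red for 5 Gy and blue for 0 Gy. Both 5 Gy lines run below both 0 Gy lines at the first base (1692.5 and 1665.5 against 2980 and 3147 CPM), while 7 bases before the 3′ end the values are 1460.0 and 1667 CPM at 5 Gy, against 1595 and 2691 CPM at 0 Gy.

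Leaving out ends within 10 bases of small RNA genes brought the median of all tested snoRNA hosts near to that of all genes. It did not do so for a shorter list of hosts, given further below. The 291 tested genes with a snoRNA on their own strand had a median log2 change of -0.24 (-0.15 within replicate 1 and -0.29 within replicate 2), against -0.01 over all tested genes, and -0.06 once small RNA genes were left out. Without small RNA genes 6 of the 12 genes still passed and Rpl5 changed direction, to a log2 change of 0.93 on 3 and 14 ends at 5 Gy, against 4 and 4 at 0 Gy.

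In another 5 of the 11 genes most ends lay in 1 crowded place that is no annotated snoRNA. Tnfsf12, a ligand of the tumour necrosis factor family, overlaps the read-through gene Tnfsfm13 and the antisense gene Tnfsf13os, and the 3 share 1 pile-up, so they are 1 observation and not 3. Within 10 bases of that place, in an exon of Tnfsf12, lay 110 and 53 ends at 5 Gy, against 148 and 175 at 0 Gy, and elsewhere in Tnfsf12 lay 4 and 1 ends at 5 Gy, against 3 and 2 at 0 Gy. Tnfsf12 as a whole (11:69686250-69695849, minus strand) had 126 and 68.7 CPM at 5 Gy, against 218 and 201 CPM at 0 Gy (-1.07 ± 0.24, adjusted p = 0.0200). The files keep no strand, so ends cannot be given to Tnfsf12 or its antisense partner. Taco1, a mitochondrial translation activator, had 62 and 26 ends at its intronic pile-up at 5 Gy, against 81 and 98 at 0 Gy, and 69.7 and 33.1 CPM in all at 5 Gy, against 121 and 113.5 CPM at 0 Gy (adjusted p = 0.0499). Timd2, a cell surface receptor for ferritin, had 24 and 13 ends at its intronic pile-up at 5 Gy, against 65 and 58 at 0 Gy, and 31.0 and 25.4 CPM in all at 5 Gy, against 101.2 and 79.4 CPM at 0 Gy (-1.63 ± 0.33, adjusted p = 0.00259).

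Ehd2 and Cluh differed from these in that their ends were spread out. Ehd2, a protein that stabilises caveolae, had 35.4 and 25.4 CPM at 5 Gy, against 111 and 63.5 CPM at 0 Gy (-1.45 ± 0.34, adjusted p = 0.0231), and 7.03% of its ends lay near its most crowded place. Cluh, which binds mRNAs of mitochondrial proteins, had 13.3 and 11.5 CPM at 5 Gy, against 44.8 and 52.2 CPM at 0 Gy (-1.95 ± 0.47, adjusted p = 0.0344), and 4.08% of its ends lay near its most crowded place. Neither gene kept its call with each position counted once. Cluh rests on 12 and 9 ends at 5 Gy, against 31 and 46 at 0 Gy, and Ehd2 on 32 and 20 ends at 5 Gy, against 77 and 56 at 0 Gy, so the counting error is large.

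Crowded positions held a smaller share at 5 Gy across the genome. Outside the dense regions, positions with 10 or more ends held 6.66% and 4.49% of ends at 5 Gy, against 9.07% and 9.43% at 0 Gy. The exact p was 0.333 and the groups did not overlap, although 5 Gy replicate 1 had the most ends of the 4 samples. Of the 40 positions with the most ends over the 4 samples, 38 had a lower CPM at 5 Gy in both numbers and 0 a higher one in both, with median ratios of 0.822 in replicate 1 and 0.494 in replicate 2. The most crowded, a base of chromosome 12 outside the genes (12:48431323), had 667.5 and 458.0 CPM at 5 Gy, against 847 and 825 CPM at 0 Gy. The next, 13:54747935 in Gprin1, had 577 and 483.5 CPM at 5 Gy, against 847 and 809 CPM at 0 Gy. In turn, 100000 ends drawn from a sample fell on more distinct positions at 5 Gy, 77563 and 77276, against 73641 and 74737 at 0 Gy (ratios of 1.05 and 1.03, exact p = 0.333). Outside the dense regions the same draw gave 91135 and 92247 positions at 5 Gy, against 88145 and 88742 at 0 Gy. One measure of crowding, taken over all ends without a draw, went the other way: of positions outside the dense regions 83.5% and 82.3% held 1 end at 5 Gy, against 86.0% and 85.1% at 0 Gy, also without overlap.

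Genes were also read by lists of known function, which were chosen with earlier results of these data known, beside the 28.2% of all tested genes that were lower and the 27.4% that were higher in both numbers. Of ribosomal protein genes, 46 of 75 were tested, 3 fell, Rpl4 and Rpl5 among them, and 0 rose (0.0934% of all tested genes fell), and 31 were lower and 4 higher in both numbers. Their median log2 change was -0.61, -0.39 with small RNA genes left out and -0.27 with each position counted once. Rpl13a had 909 and 841 CPM at 5 Gy, against 1210 and 1474 CPM at 0 Gy, and Rpl3 had 1028 and 664 CPM at 5 Gy, against 1382 and 1330 CPM at 0 Gy, with adjusted p of 0.561 and 0.426. Rps3a1, just outside the threshold, had 98.5 and 103 CPM at 5 Gy, against 191 and 209.9 CPM at 0 Gy (adjusted p = 0.101). Outside small RNA genes, the exons of this list held 1.99 and 1.98 CPM per kb at 5 Gy, against 2.58 and 2.52 CPM per kb at 0 Gy.

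Of noncoding and coding snoRNA hosts outside that list, 17 of 22 were tested, 0 passed, and 13 were lower and 0 higher in both numbers. Their median log2 change was -0.50, and -0.47 with small RNA genes left out. Snhg1 had 1882 and 1779 CPM at 5 Gy, against 2999 and 3408 CPM at 0 Gy (-0.76 ± 0.23, adjusted p = 0.293). Snhg6 had 1456 and 1687 CPM at 5 Gy, against 1559 and 2691 CPM at 0 Gy. Translation factors had a median of -0.31, with 10 of 22 lower and 3 higher in both numbers, and 0 passed. Eif4g1, the scaffold of the cap-binding complex, had 329 and 271 CPM at 5 Gy, against 526 and 478 CPM at 0 Gy, and 59.4% of its ends lay in a snoRNA. The helicases Eif4a1 and Eif4a2 had fitted log2 changes of -0.71 and -0.48, with 83.9% and 92.5% of their ends in snoRNAs.

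Of 33 highly transcribed genes tested, 23 were lower and 1 higher in both numbers, with a median log2 change of -0.33, which was -0.31 without small RNA genes and -0.28 with each position counted once. None passed the test. Malat1, an abundant nuclear noncoding RNA gene, had 2633 and 3176 CPM at 5 Gy, against 3834 and 3962 CPM at 0 Gy (-0.37 ± 0.23, adjusted p = 0.828). Ahnak, a giant scaffold protein, had 996 and 595.5 CPM at 5 Gy, against 1155 and 875 CPM at 0 Gy. Ncl, encoding nucleolin, had 550.1 and 531 CPM at 5 Gy, against 651 and 749.9 CPM at 0 Gy, with 87.7% of its ends in snoRNAs. Fibroblast and matrix genes gave 13 of 23 lower and 1 higher in both numbers, with a median of -0.27. Col1a1, a collagen chain, had 441 and 363 CPM at 5 Gy, against 642 and 508 CPM at 0 Gy. Fn1, fibronectin, had 554 and 453 CPM at 5 Gy, against 638 and 704 CPM at 0 Gy, and Thbs1, thrombospondin, had 339.8 and 356 CPM at 5 Gy, against 374 and 407 CPM at 0 Gy. Chromatin architecture and remodelling genes gave 13 of 28 lower and 3 higher in both numbers (median -0.18). The remodellers Smarca2 and Chd2 had log2 changes of -0.36 and -0.12 and the architectural factor Hmga2 -0.56, with 0 of the list past the test.

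Long genes known from common fragile sites had the opposite sign. They were not set against other long genes, and 1 Mb windows without a protein-coding start, described below, also had a median above 0 (0.21). Of 27 long fragile-site genes tested, 20 were higher and 2 lower in both numbers, with a median log2 change of 0.27 that was 0.21 with library totals in place of TMM and 0.27 with each position counted once. None passed the test. Lrp1b, a large lipoprotein receptor-related protein, had 615 and 576 CPM at 5 Gy, against 416 and 436 CPM at 0 Gy (0.55 ± 0.22, adjusted p = 0.603). Ptprd, a receptor phosphatase, had 614 and 608 CPM at 5 Gy, against 457 and 472 CPM at 0 Gy. Macrod2 had 2564 and 2208 CPM at 5 Gy, against 2733 and 2691 CPM at 0 Gy, but 65.7% of its ends lay on 1 position, and its log2 change was -0.12, and 0.27 with each position counted once.

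In a further 6 lists, with 5 to 25 tested genes each, no gene passed the test. Double-strand break repair and signalling genes gave 9 of 25 lower and 8 higher in both numbers (median -0.15), p53 targets 2 of 15 and 2 (median -0.08), immediate early genes 3 of 12 and 3 (median -0.17), mesothelial genes 4 of 9 and 2 (median -0.24), neuronal genes 3 of 17 and 8 (median 0.09) and blood cell genes 1 of 5 and 2 (median 0.34). Xrcc4, a partner of DNA ligase IV, had 226 and 144 CPM at 5 Gy, against 256 and 245 CPM at 0 Gy, with 65.9% of its ends on 1 position. Prkdc, the catalytic subunit of DNA-dependent protein kinase, had 121 and 92.9 CPM at 5 Gy, against 117 and 131 CPM at 0 Gy, and Rad51b, a protein of homologous recombination, had 157 and 123 CPM at 5 Gy, against 162 and 153 CPM at 0 Gy. Among p53 targets Sesn1, Sesn2 and Zmat3 had log2 changes of 0.28, -0.34 and -0.80. Among immediate early genes Dusp1, Fosl1 and Fosl2 had -0.70, 0.40 and -0.49, and 88.0% of the ends of Dusp1 lay on 1 position.

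Among genes higher at 5 Gy in both numbers, the smallest p belonged to Sgo2a, which protects centromeric cohesion in meiosis, with 12.2 and 25.4 CPM at 5 Gy, against 1.45 and 1.13 CPM at 0 Gy (adjusted p = 0.141). Lingo2 had 338 and 360.1 CPM at 5 Gy, against 212.5 and 239 CPM at 0 Gy (0.69 ± 0.22, adjusted p = 0.389). Kcnma1, a calcium-activated potassium channel, had 148 and 139 CPM at 5 Gy, against 91.1 and 84.0 CPM at 0 Gy, and Gpr158, an orphan receptor, had 170.5 and 119.6 CPM at 5 Gy, against 85.3 and 91.9 CPM at 0 Gy. In all 4 genes the groups did not overlap, but genes chosen for a small p and the same sign in both numbers tend to separate so. This adds no support. The others were Apol8, Prdm10, Spata5, Arhgef38, Nrip1, Slc6a15, Ptprq and Col6a6, with log2 changes of 0.90 to 2.63 and adjusted p of 0.262 to 0.498. None of the 12 passed the test.

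The ratio of 5 Gy to 0 Gy was lower for genes with many ends in the control line. Protein-coding genes outside dense regions were put in 5 equal classes of 4092 by exon ends per kb over the 8 shCTRL samples, and small RNA genes were left out. In the densest class, exons held 4.27% and 3.44% of ends at 5 Gy, against 5.22% and 4.73% at 0 Gy, ratios of 0.817 and 0.727. Introns of that class held 10.7% and 10.7% at 5 Gy, against 12.4% and 12.4% at 0 Gy, ratios of 0.865 and 0.868. In the sparsest class the exon ratios were 1.04 and 1.08 and the intron ratios 1.06 and 1.02, and in the next class 1.07 and 1.14 for exons and 1.10 and 1.09 for introns. In the middle class the exon ratios were 0.994 and 0.925 and the intron ratios 1.07 and 1.04, and in the class above it they were 0.919 and 0.824 for exons and 0.959 and 0.934 for introns. So the densest 2 classes held a smaller share at 5 Gy and the sparsest 2 a larger one, in exons and introns and in both numbers, while in the middle class exons and introns went opposite ways.

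Along the chromosomes, 1 Mb windows with few genes held more ends at 5 Gy and windows with many genes fewer. Of 2578 windows tested, 0 passed (0% called, edgeR), with 216 higher and 228 lower at an unadjusted p under 0.05, 17.2% of windows, and DESeq2 called 15, all lower. The 291 windows without a protein-coding start had a median log2 change of 0.21 (0.21 within replicate 1 and 0.17 within replicate 2), and 64.9% of them were higher and 7.22% lower in both numbers. The 288 windows with 20 or more starts had a median of -0.22 (-0.21 and -0.20), and 12.8% were higher and 68.8% lower in both numbers. Between these extremes the medians were 0.10 for 1 to 4 starts, -0.04 for 5 to 9 and -0.12 for 10 to 19 (n = 869, 628 and 502). In that order, 47.2%, 25.6% and 18.3% of windows were higher in both numbers, and 17.6%, 38.2% and 55.2% were lower. With library totals in place of TMM, all windows moved up by 0.09 and the median for 5 to 9 starts became 0.06, while the ends of the order kept their signs at 0.30 and -0.13. Over windows the log2 change and the number of starts had Pearson's r = -0.39 and Spearman's rho = -0.49 (n = 2578, which share the 4 samples and are no replicates). The changes within replicate 1 and within replicate 2 had r = 0.48 over windows and 0.11 over genes.

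**Figure D4:**
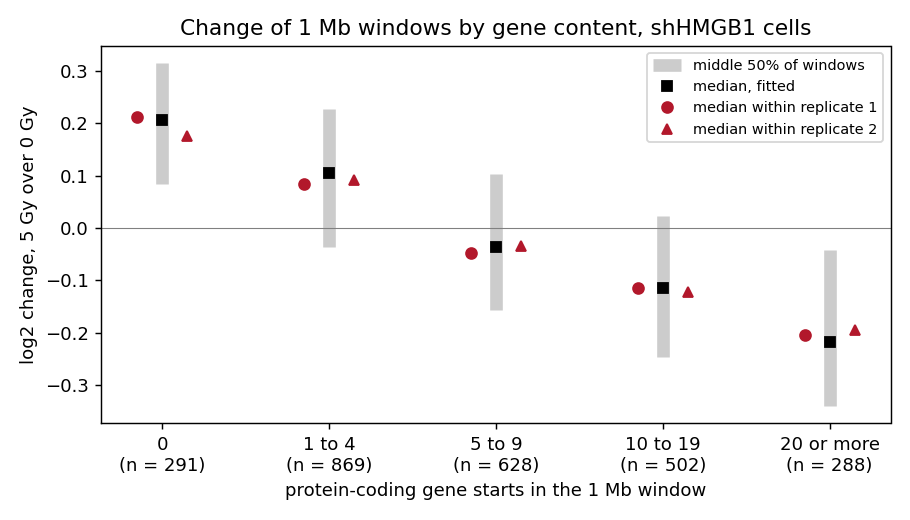
Log2 change of break ends in 1 Mb windows, 5 Gy over 0 Gy, by the number of protein-coding gene starts in the window. Squares are medians of the fitted change, grey bars the middle 50% of windows, and red circles and triangles the medians within replicates 1 and 2. The medians step down, 0.21 at 0 starts and -0.22 at 20 or more, and the 2 replicate numbers lie close together.

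Of the 10 windows with the smallest p in either direction, some followed this contrast and others did not. The window 4:67000001-68000000, without a protein-coding start, had 280 and 242 ends at 5 Gy, against 114 and 192 at 0 Gy (0.60 ± 0.15, edgeR adjusted p = 0.101). The window 4:36000001-37000000, which holds part of Lingo2, had 256 and 233 ends at 5 Gy, against 118 and 170 at 0 Gy. The window 5:122000001-123000000, with 21 starts including Cux2 and Myl2, had 337 and 248 ends at 5 Gy, against 354 and 411 at 0 Gy (-0.60 ± 0.14, edgeR adjusted p = 0.101). The window X:7000001-8000000, with 31 starts, had 304 and 226 ends at 5 Gy, against 295 and 381 at 0 Gy. As shares of ends, the 5 Gy and 0 Gy samples did not overlap in these 4 windows. They were chosen for a small p and the same sign in both numbers, so this adds no support. Against the contrast, X:140000001-141000000 with 10 starts and 3:113000001-114000000 with 7 starts, which holds amylase genes, had log2 changes of 0.62 and 0.60, and 13:57000001-58000000 with 1 start, that of Spock1, had -0.54. The remaining 3 were 4:79000001-80000000 without a start (0.49), 4:140000001-141000000 with 10 starts (-0.59) and 16:91000001-92000000 with 19 starts (-0.53). Adjusted p in these 6 windows was 0.101 to 0.125.

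At the starts of protein-coding genes the peak of distinct break positions was lower at 5 Gy. In the first 300 bases after the start lay 0.891% and 0.765% of distinct positions at 5 Gy, against 1.08% and 0.950% at 0 Gy, ratios of 0.828 and 0.806. In the 300 bases before the start lay 0.522% and 0.507% at 5 Gy, against 0.582% and 0.551% at 0 Gy, ratios of 0.896 and 0.920. Between 1 and 2 kb before it the ratios were nearer to 1, at 0.950 and 0.953. On the other side, the ratios were 0.837 and 0.873 in the rest of the first 1 kb after the start. Between 1 and 2 kb after it they were 0.877 and 0.884. The decrease thus ran on past the start and was not particular to the first 300 bases. Counting all ends turned the direction in the first 300 bases, with 6.22% and 7.67% at 5 Gy, against 5.37% and 5.91% at 0 Gy. With dense regions left out the share there was 0.799% and 0.705% at 5 Gy, against 0.956% and 0.874% at 0 Gy. In shCTRL the share of distinct positions in the first 300 bases was lower at 5 Gy too, with ratios of 0.949 and 0.928.

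**Figure D5:**
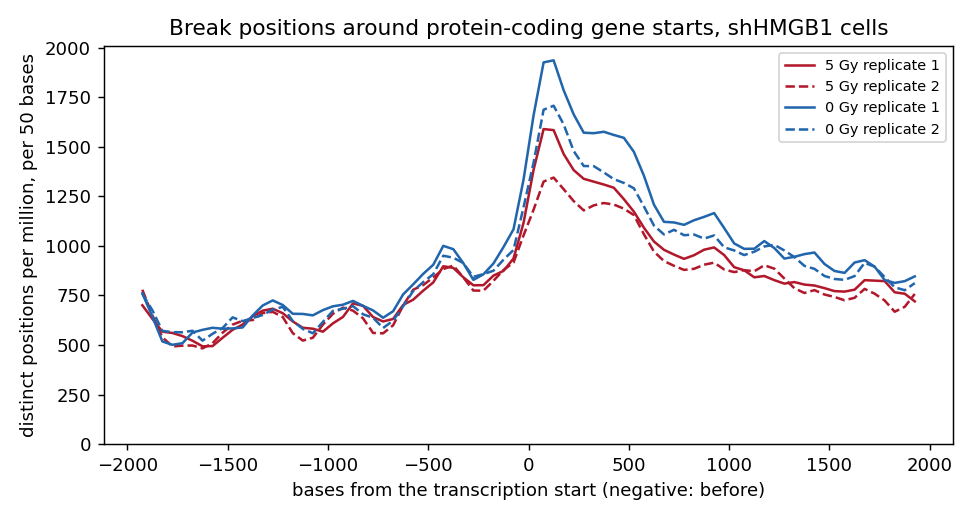
Distinct break positions in CPM, per 50 bases and averaged over 3 neighbouring bins, by distance from protein-coding transcription starts, 1 line per shHMGB1 sample (red for 5 Gy, blue for 0 Gy, solid for replicate 1, dashed for replicate 2). Just after the start both 5 Gy lines run below both 0 Gy lines, and before the start the lines lie close together.

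Promoters were then divided by their CpG content. In RefSeq promoters of GRCm38.p6 (250 bases before to 50 after the start), CpG-rich ones (at least 55% G and C and an observed over expected CpG ratio of at least 0.6, n = 8297) held 2962 and 2517 CPM of distinct positions at 5 Gy, against 3805 and 3306 CPM at 0 Gy. The ratios were 0.779 and 0.761. CpG-poor ones (a CpG ratio under 0.4, n = 13778) held 1564.0 and 1628 CPM at 5 Gy, against 1620 and 1607 CPM at 0 Gy, ratios of 0.966 and 1.01. In shCTRL the ratios of 5 Gy to 0 Gy were 1.08 and 0.888 for CpG-rich promoters and 0.876 and 0.913 for CpG-poor ones.

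Single promoter windows gave 2 calls of 398 tested, both higher (0.503%), and 0 lower. At an unadjusted p under 0.05 there were 17 higher and 9 lower. Both lie in the repeat at the start of chromosome 9: the window at Gm11168 (9:3002346-3004346) had 365 and 428 ends at 5 Gy, against 202 and 300 ends at 0 Gy (1.12 ± 0.28, edgeR adjusted p = 0.0335), and that at Gm17535 (9:3033599-3035599) had 337 and 327 ends at 5 Gy, against 128 and 249 ends at 0 Gy (1.34 ± 0.32, edgeR adjusted p = 0.0335). Reads of a repeat can be placed at any of its copies, so the copies are not separate observations. The calls depended on the scaling: with library totals the median of all promoters was -0.61 in place of -0.06, and 0 windows were higher and 6 lower past the test. With size factors both windows passed, and with dense regions left out they were 2 of 3 that passed. Without the replicate block, by DESeq2 or without any 1 of the 4 samples 0 passed. Of the other named windows, Fam83f had 52 and 29 ends at 5 Gy, against 106 and 109 at 0 Gy, Hyou1 100 and 35 at 5 Gy, against 142 and 151 at 0 Gy, Pdzd8 38 and 13 at 5 Gy, against 67 and 63 at 0 Gy, and Psmd2 17 and 13 at 5 Gy, against 7 and 2 at 0 Gy. Rpl13a had 0 and 0 ends at 5 Gy, against 8 and 5 at 0 Gy, and Nrd1 had 1 and 2 at 5 Gy, against 10 and 12 at 0 Gy. The windows at Gm10718 and Gm10717 lie in the same repeat, with adjusted p of 0.475.

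Of 3459 bins of 1 kb, 0 passed (0% called, edgeR, with 128 higher and 61 lower at an unadjusted p under 0.05), while DESeq2 called 11. The smallest p was that of a bin in the chromosome 9 repeat, 9:3003001-3004000, with 261 and 297 ends at 5 Gy, against 108 and 167 at 0 Gy (edgeR adjusted p = 0.0561). A bin in Plec, which encodes a cytoskeletal linker (15:76185001-76186000), had 21 and 35 ends at 5 Gy, against 8 and 8 at 0 Gy. Lower bins included one in Serpinh1, a collagen chaperone (7:99351001-99352000), with 2 and 2 ends at 5 Gy, against 24 and 22 at 0 Gy, and those that hold the pile-ups of Timd2 and Rpl4. The median of all bins was -0.54 by library totals, in place of 0.01.

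Set beside the control line, some shares changed differently and others alike, without a test that could pass. The exon share changed by -3.43 and -3.47 points in shHMGB1, against -1.45 and -0.192 in shCTRL, and the intergenic share by 3.46 and 2.29 in shHMGB1, against -1.30 and -0.980 in shCTRL. The share at positions with 10 or more ends changed by -2.41 and -4.94 points in shHMGB1, against 0.693 and 0.667 in shCTRL, and the snoRNA share by -0.834 and -1.42 in shHMGB1, against 0.391 and -0.229 in shCTRL. Each of these differences between lines had an exact p of 0.333, the smallest that 2 pairs against 2 allow. The promoter share changed by 0.934 and 2.88 points in shHMGB1, against 2.28 and 1.57 in shCTRL (exact p = 1.0). With each position counted once it changed by -0.544 and -0.409 in shHMGB1, against -0.281 and -0.343 in shCTRL. That was a decrease in both lines, and the exact p of the difference was again 0.333, the smallest possible. The chromosome 17 repeat was lower at 5 Gy in shCTRL too, where it held 3.89% and 3.28% of ends at 5 Gy, against 6.22% and 3.57% at 0 Gy. The shCTRL samples at 5 and 0 Gy had fewer ends (392139 to 524957), and the part of depth in the share at crowded positions was not tested. The test of the difference itself called 0 of 12848 genes (0% called, edgeR, 375 higher and 523 lower at an unadjusted p under 0.05) and 0 of 2578 windows (126 and 129), and DESeq2 called 0 of each. The smallest adjusted p for genes was 0.0670, which among the named genes Rpl4, Ppan, Cluh and Rps3a1 had, with 5 Gy changes in shCTRL of 0.05, 0.37, 0.89 and 0.49. Other genes described above as past the test were lower in shCTRL too: Timd2 (log2 change -1.17), Taco1 (-0.67), Gm26917 (-0.62) and Rpl5 (-0.52). In the rest of those genes the shCTRL change was -0.01 in Tnfsfm13, 0.06 in Tnfsf13os, 0.08 in Tnfsf12 and 0.57 in Ehd2. In windows without a protein-coding start the median change was 0.21 in shHMGB1, against 0.02 in shCTRL, and in those with 20 or more starts -0.22 in shHMGB1, against -0.02 in shCTRL.

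The other doses of shHMGB1 use the same 0 Gy samples, so their values are given side by side and not as repeats of the result. The exon share was 12.6% and 7.30% at 3 Gy, 10.7% and 8.56% at 5 Gy and 11.8% and 9.77% at 10 Gy, against 14.1% and 12.02% at 0 Gy. The snoRNA share was 2.57% and 1.43% at 3 Gy, 1.89% and 1.57% at 5 Gy and 2.09% and 1.73% at 10 Gy, against 2.73% and 2.99% at 0 Gy. In windows with 20 or more starts the median log2 change was -0.33 at 3 Gy, -0.22 at 5 Gy and -0.11 at 10 Gy, and in windows without one 0.28, 0.21 and 0.11. Rpl4 had fitted log2 changes of -0.89 at 3 Gy, -1.26 at 5 Gy and -0.63 at 10 Gy. Against 0 Gy, 11 genes passed at 3 Gy (0.0856%) and 0 at 10 Gy, and 178 windows passed at 3 Gy (6.9%) and 0 at 10 Gy. The changes at 5 Gy lay between those at 3 and 10 Gy for the windows and did not for Rpl4, so no single order by dose held.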

How the data were processed

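The authors deposited, per the file headers and names, 1 list per sample of clusters of break ends with their positions and raw counts of molecules after removal of duplicate identifiers, not normalised. Tools named by the submitters' processing notes are BWA 0.7.5-r404 and Trimmomatic 0.32, with bedtools, UMI-tools and SAMtools, and the build is mm10. Ends were placed at their own positions (1-based), main chromosomes were kept, and mitochondrial (0.217% to 0.478%) and unplaced (0.411% to 0.745%) ends were left out. The files keep no strand.

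Genes were the 32093 protein-coding and long noncoding genes of GENCODE M21, over their whole span, so that overlapping genes share ends. Regions were assigned by priority (within 1 kb of a protein-coding start, exon, intron, intergenic). Counts were tested with edgeR 4.0.16 (R 4.3.3; TMM, filterByExpr, glmQLFTest) on 8 group means of all 16 samples, with replicate number within each line as a block because the comparison is defined within number. The labels call replicates biological without saying what a number shares, so a p-value covers only the spread seen among these samples, which may be technical. Differences between replicates 1 and 2 of the 6 pairs of shHMGB1 doses correlated at 0.0211 to 0.0547 over genes and 0.104 to 0.187 over 1 Mb windows, so the numbers pair the samples weakly at most. Single values were tested by exact two-sided permutation. Scripts were tested on simulated data.

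Members, lists and tests were chosen with earlier results of these data known. Named genes were up to 12 with the smallest p in each direction and the same sign in both numbers, leaving out predicted genes, plus all genes past the test, the 15 densest genes at 0 Gy, Hmgb1 and the 3 members of each list with the most ends, of which 1 gene past the test is not reported here. For windows, promoters and bins 5 in each direction were taken. Alternatives were DESeq2 1.42.0, other scalings, no filter, distinct positions, no dense regions, other sets of samples, no block and each sample left out. A limit of 3 ends per position and small RNA genes left out were added after seeing the data. Sequences came from GENCODE M21 transcripts and RefSeq promoters. GC content around positions was not run, as no genome of the build was used here. Other steps used Python 3.11.15 with numpy 2.4.6, pandas 2.3.3 and scipy 1.17.1, and figures were drawn with matplotlib 3.10.9.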

Additional observations from a re-analysis of the deposited data

How the results depend on the processing

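The samples limit every result here: 2 against 2 cannot pass an exact test, and the calls depend on how the spread is modelled. Of 12 genes past the test, 0 passed with no replicate block, 2 by DESeq2, 4 with no filter on low counts, 0 with each position counted once, 0 with at most 3 ends per position and 6 with small RNA genes left out, and 55 passed with only the samples compared. Leaving out 1 sample at a time gave 0 to 12 genes, 12 only without 0 Gy replicate 1, of which 7 were among the 12. The 2 promoter windows became 0 with no replicate block, DESeq2, no filter, each position counted once, only the samples compared, at most 3 ends per position, small RNA genes left out, 2.5 kb on each side or any 1 sample left out (0 to 0), 6 with library totals and 12 with only the 8 shHMGB1 samples. In place of 0, 1 Mb windows gave 15 by DESeq2, 298 with only the samples compared and 20 with only the 8 shHMGB1 samples, and 100 kb windows gave 1. In place of 0, 1 kb bins gave 11 by DESeq2, 6 with library totals, 17 with only the 8 shHMGB1 samples and 1 each with size factors, each position counted once or dense regions left out. The difference between lines, 0 genes, became 1 with each position counted once, 26 with only the samples compared and 0 to 9 without 1 sample (9 without shHMGB1 0 Gy replicate 1). For windows it became 1 with library totals or no filter, 5 with only the samples compared and 0 to 1 without 1 sample. The replicate block changed no call in the windows, the bins or the difference between lines. The cause of these changes was not tested.

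The promoter share changed sign, to -0.48 points with each position counted once, -0.38 after equal draws, -0.62 with dense regions left out and -0.48 with at most 3 ends per position. The log2 ratio of totals ran between -0.065 and 0.28 without 1 sample. Around starts, the log2 ratio turned to -0.29 in the first 300 bases with each position counted once and -0.25 with at most 3 ends per position, to -0.23 and -0.19 in the rest of the first 1 kb after the start, and to -0.082 and -0.091 more than 300 bases and up to 1 kb before it. Between 1 and 2 kb before the start it ran between -0.065 and 0.061 without 1 sample.

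Of 1540 alternatives for 105 named features, 1319 gave the same call and direction, 124 lost a call, 56 gained one and 41 changed direction. With each position counted once, log2 changes turned to -0.024 in Gm10800, -0.0006 in Gm33838, 0.44 in Xrcc4, 0.34 in Dusp1, 0.067 in Ncl, 0.27 in Macrod2 and 0.009 in Adgre1. With at most 3 ends per position they turned to -0.053 in Gm10800, -0.019 in Gm33838, 0.43 in Xrcc4, 0.32 in Dusp1, 0.023 in Ncl, 0.25 in Macrod2 and 0.094 at the Hyou1 promoter. With small RNA genes left out they turned to 0.93 in Rpl5, 0.29 in Ncl, 0.037 in Eif4a2 and 0.029 in Rpl3, and with dense regions left out to 0.24 in Macrod2. Without 1 sample, the ranges that crossed 0 were -0.46 to 0.11 in AY036118, -0.052 to 0.25 in Gm10801, -0.12 to 0.24 in Gm21738, -0.14 to 0.94 in Hmgb1, -0.28 to 0.048 in Rad51b, -0.40 to 0.071 in Prkdc, -1.47 to 0.13 in Zmat3, -0.29 to 0.036 in Macrod2, -0.18 to 0.49 in Grin2a, -0.018 to 0.21 in Syt1, -0.39 to 0.25 in Adgre1, -0.21 to 0.97 in Itgam, -0.40 to 0.25 in Aldh1a1, -0.26 to 0.13 in Muc16, -0.54 to 0.0015 in Nf2 and -0.33 to 0.13 in Thbs1.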

Other observations

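Of the 15 genes with the most ends per kb at 0 Gy, Gm10800 on chromosome 2 led with 105802 CPM per kb at 5 Gy, against 83027 CPM per kb at 0 Gy, and Gm10718 on chromosome 9 had 8481 CPM per kb at 5 Gy, against 5723 CPM per kb at 0 Gy. Gm10801, Gm10722, Gm21738, Gm33838 and Gm11168 had fitted log2 changes of 0.06 to 0.42, and Gm12238 and Gm28872 of -0.78 and -0.72, and 0 of these 9 passed the test. Snhg1, Snhg6 and Gas5 were the densest that are not predicted genes or part of the chromosome 17 repeat, at 616.5, 727.5 and 539 CPM per kb at 5 Gy, against 1079, 984 and 983 CPM per kb at 0 Gy.

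By chromosome, outside dense regions, chromosome 11 held 5.51% and 5.38% of ends at 5 Gy, against 5.80% and 5.74% at 0 Gy, and chromosome 3 held 6.41% and 6.60% at 5 Gy, against 6.05% and 6.27% at 0 Gy. Chromosome X held 3.37% and 3.44% at 5 Gy, against 3.04% and 3.30% at 0 Gy. The mitochondrial genome held 0.441% and 0.339% of ends at 5 Gy, against 0.297% and 0.261% at 0 Gy, and in shCTRL the change was -0.0536 and 0.0301 points. Among neuronal genes Cacna1a, Grin2a and Syt1 had log2 changes of -0.29, 0.14 and 0.09, among blood cell genes Ptprc, Adgre1 and Itgam 0.36, -0.06 and 0.34, and among mesothelial genes Aldh1a1, Muc16 and Nf2 -0.06, -0.07 and -0.26.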
